A study of Mus musculus with 6 samples.

Results

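Col15a1 and Col18a1, the 2 multiplexin collagens, were examined in the thoracic aorta of adult mice. They were taken by gene identifier from a table of 52636 genes. They were chosen by their transcript levels in KO against WT aortas, where both were lower after TGF-β signalling was disrupted, so their difference between the groups is given as a description without a test.

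Multiplexins are nonfibrillar collagens whose triple helix is broken by many short interruptions. Type XV collagen carries mainly chondroitin sulfate chains and type XVIII collagen mainly heparan sulfate chains, so both are proteoglycans as well as collagens. They sit in and beneath basement membranes of vessel walls, where type XV collagen bridges the basement membrane and the fibrillar collagen around it. Proteases release the C-terminal end of type XVIII collagen as endostatin, an inhibitor of endothelial growth, and a related fragment, restin, comes from type XV collagen.

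Bulk RNA-seq had been performed on whole thoracic aortas of 6 male mice at 12 weeks of age, 4 WT and 2 Tgfbr1/2iSMCKO (KO). WT mice were untreated C57BL/6J mice. KO mice had floxed alleles of Tgfbr1 and Tgfbr2, Myh11-CreERT2 on the Y chromosome and the reporter mT/mG, were bred to the C57BL/6J background, and received tamoxifen (2 mg daily, 5 days), starting at an age of 11 weeks. The Myh11 promoter drives Cre in smooth muscle cells (SMCs), while endothelial, adventitial and blood cells keep intact receptors and also contribute RNA to a whole aorta. WT mice lacked the floxed alleles, the transgene, the reporter and tamoxifen, so the effects of receptor deletion, of the other alleles and of the drug cannot be told apart in this comparison. In a whole tissue, fewer cells of a type and less RNA per cell cannot be told apart either.

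Both genes are long. Col15a1 (ENSMUSG00000028339.17) spans 105 kb of chromosome 4 on the forward strand (chr4:47208161-47313167, GRCm38), and Col18a1 (ENSMUSG00000001435.15) spans 114 kb of chromosome 10 on the reverse strand (chr10:77052178-77166548). Their merged exons measure 6349 and 7021 bases. Col18a1 has an upstream promoter, which yields the short isoform, and an internal promoter 52.8 kb further into the gene, which yields longer isoforms with another N-terminal end. The deposited values are sums per gene, so isoforms were not told apart.

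The 250 bases before each RefSeq start site (GRCm38.p6) are shown to give the sequence from which transcription of the members starts. No value here measures promoter activity. The sequences read 5′ to 3′ in the direction of transcription, and capitals mark each match to a searched motif. They lie at chr4:47207762-47208011 (forward strand), chr10:77166531-77166780 (reverse strand) and chr10:77113706-77113955 (reverse strand).
Col15a1 promoter: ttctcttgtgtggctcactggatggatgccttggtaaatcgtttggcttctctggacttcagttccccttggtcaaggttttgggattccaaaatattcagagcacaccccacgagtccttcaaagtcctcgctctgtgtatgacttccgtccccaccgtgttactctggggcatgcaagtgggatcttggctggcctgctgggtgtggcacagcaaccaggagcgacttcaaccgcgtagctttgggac
Col18a1 upstream promoter: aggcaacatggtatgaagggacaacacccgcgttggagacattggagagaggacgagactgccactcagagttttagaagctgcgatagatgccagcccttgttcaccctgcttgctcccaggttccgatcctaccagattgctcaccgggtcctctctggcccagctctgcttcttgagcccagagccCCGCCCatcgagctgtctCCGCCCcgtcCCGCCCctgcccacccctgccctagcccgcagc
Col18a1 internal promoter: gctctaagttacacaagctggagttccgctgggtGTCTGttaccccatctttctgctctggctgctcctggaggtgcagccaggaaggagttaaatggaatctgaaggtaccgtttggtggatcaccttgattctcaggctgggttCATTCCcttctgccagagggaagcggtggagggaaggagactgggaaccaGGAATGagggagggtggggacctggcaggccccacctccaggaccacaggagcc

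The 3 promoters differed in base composition. Over the window of 300 bases, which adds the first 50 transcribed bases, GC content was 52.3% for Col15a1, 63.3% for the upstream and 59.7% for the internal promoter of Col18a1, against a median of 52.7% over all 32851 RefSeq promoter windows. CpG pairs numbered 8, 16 and 6 in the same order. The Smad box CAGAC, the short element bound by Smad proteins, matched once in the internal Col18a1 promoter, at -216, and once in Col15a1 at 32 bases past the start, outside the bases shown. It matched 49.6% of all promoter windows, so a match is common. The Sp1 GC box GGGCGG matched the upstream Col18a1 promoter at -61, -43 and -33 and is found in 35.7% of windows. The TEAD site CATTCC matched the internal Col18a1 promoter at -104 and -54 and is found in 14.7% of windows. Motifs without a match in any of the 3 windows were the palindromic Smad element GTCTAGAC (0.213% of windows), the GC-rich Smad site GGCGC (36.9%), the AP-1 site TGACTCA (5.20%), the TATA box TATAAA (13.6%), the E-box CACGTG (7.15%) and the CArG box (1.63%). Both strands were searched, and no searched motif overlapped another in the bases shown. A match describes letters only and is not evidence of binding.

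Type XV collagen transcripts were nearly lost from the KO aortas. Normalised counts of Col15a1, that is counts divided by DESeq2 size factors, across WT-1 to WT-4 were 20673, 23041, 27565 and 21866. They were 539.5 in KO-1 and 768.2 in KO-2. Every WT library lay far above both KO libraries, and the WT libraries lay close together. The WT mean was 23286 ± 3012 (SD, n = 4) and the KO mean 653.9 ± 161.7 (SD, n = 2), so that 2.81% of the WT level remained. The fitted log2 fold change was -5.16 (standard error 0.20), a 35.6-fold difference of means. Taken singly against the WT mean, the log2 change was -5.43 in KO-1 and -4.92 in KO-2. The transcript was not absent: raw counts were 711 and 625 in the KO libraries, well above the limit of 3 counts that a count of 0 allows.

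The share of each library gives the same picture without size factors. Col15a1 took 0.0863% to 0.115% of the counts of a WT library. It took 0.00246% in KO-1 (95% Wilson interval 0.00229% to 0.00265%) and 0.00318% in KO-2 (0.00294% to 0.00344%), intervals that cover counting error only. These intervals did not meet, so the KO libraries differed from each other by more than counting error, though by far less than from WT. Among protein-coding genes ordered by level per kb of exon, Col15a1 ranked between 174 and 239 in the WT libraries, among the abundant transcripts of the aorta, but 8038 in KO-1 and 6571 in KO-2.

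Col18a1 was also lower in KO, to a lesser extent and from a higher start. Across WT-1 to WT-4 its normalised counts were 60856, 70175, 57338 and 60773, beside 26854 in KO-1 and 26801 in KO-2. The groups did not overlap, and the KO libraries were nearly equal. The WT mean was 62286 ± 5509 (SD, n = 4) and the KO mean 26827 ± 37.7 (SD, n = 2), so that 43.1% of the WT level remained, a 2.32-fold difference with a fitted log2 fold change of -1.22 (standard error 0.15). In each KO library taken singly, the log2 change from the WT mean was -1.21 and -1.22. Col18a1 took 0.240% to 0.303% of counts in WT libraries, 0.123% in KO-1 and 0.111% in KO-2. Its rank among protein-coding genes per kb of exon was between 57 and 72 in WT and was 168 and 186 in KO-1 and KO-2. Both members thus had both KO libraries below every WT library, as had 16.4% of the 17070 genes tested.

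**Figure D1:**
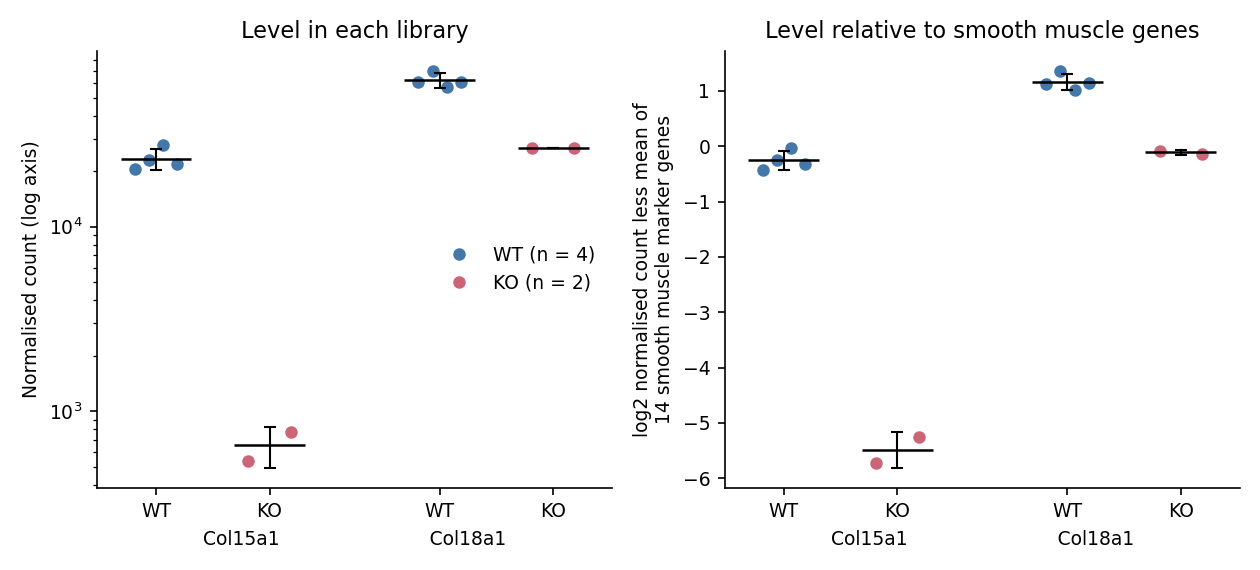
Left, normalised counts of Col15a1 and Col18a1 in each library on a log axis; right, log2 normalised count less the mean log2 normalised count of 14 smooth muscle marker genes. Points are libraries (4 WT, 2 KO), bars are means and error bars SDs; Col15a1 lies between 20673 and 27565 in WT and at 539.5 and 768.2 in KO, Col18a1 between 57338 and 70175 in WT and at 26854 and 26801 in KO.

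Spread within WT was small for both members. The SD of log2 normalised counts over the 4 WT libraries was 0.18 for Col15a1 and 0.12 for Col18a1. The median over 4508 genes with a mean of at least 1000 in WT was 0.15, so neither gene varied unusually among untreated mice. In KO, the SD over the 2 libraries was 0.36 for Col15a1 and 0.0020 for Col18a1, and with 2 libraries such values are imprecise. Ordered by fitted log2 fold change among those 4508 abundant genes, Col15a1 stood lowest, the next gene being at -3.45. Col18a1 stood at position 69, and 113 of these genes were lower by more than 2-fold. These positions use the contrast by which the genes were chosen and are a description.

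Smooth muscle markers did not move with the members. Of 14 such markers, which include Acta2, Myh11 and Tagln, 0 passed the test in DESeq2 and 0 in edgeR, while 3 were lower and 1 higher at an unadjusted p under 0.05. Over all genes tested, 10.4% passed in DESeq2. Without WT-4, 2 were called lower, without KO-2 1 lower and without KO-1 1 higher. Their summed normalised count was 1065820 to 1213770 in WT and 1058760 and 1194140 in KO-1 and KO-2. Relative to the mean log2 level of these markers, Col15a1 stood across WT-1 to WT-4 at -0.42, -0.24, -0.03 and -0.32, and at -5.72 and -5.26 in KO-1 and KO-2, a difference of means of -5.24. Col18a1 stood at 1.13, 1.37, 1.02 and 1.15 in WT and at -0.08 and -0.14 in KO, a difference of -1.28. Setting both genes against the mean of these markers therefore left their differences as large as before. That mean holds changes in both directions, with fitted log2 fold changes of the markers from -0.41 to 0.40. Acta2 and Tagln are also counted among the TGF-β response genes below.

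The balance between the 2 multiplexins also differed between the groups. Compared per kb of exon, Col18a1 exceeded Col15a1 by 2.66, 2.75, 1.88 and 2.51 times in WT-1 to WT-4. The ratio was 45.0 in KO-1 and 31.5 in KO-2. Type XVIII transcripts thus made up nearly all of the multiplexin level per length in KO, while type XV held a substantial part in WT.

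The multiplexins held a large share of the collagen transcripts of the untreated aorta. By level per length (normalised count per kb of merged exon), Col18a1 was 8871 ± 785 (SD, n = 4) and ranked second among 44 collagen genes in every WT library, below Col1a1 at 11509 ± 1244 and above Col3a1 at 7889 ± 225, Col1a2 at 7115 ± 384 and Col6a1 at 5092 ± 102. Col1a1, Col1a2 and Col3a1 encode the fibrillar type I and type III collagens of the wall, and Col6a1 a chain of type VI microfibrils. The gap between Col18a1 and Col3a1 was near the SD of Col18a1, and with the longest transcript as length Col18a1 ranked 4 behind all 3 fibrillar genes, so its place among these neighbours in order is not firm. Col15a1 was 3668 ± 474 (SD, n = 4) and ranked 8 in every WT library, between Col4a2 and Col6a2, and 9 by its WT mean with the longest transcript as length.

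By KO mean per kb of merged exon, the 7 collagen genes that ranked beside the multiplexins in WT kept their order. These were Col1a1, Col3a1, Col1a2, Col6a1, Col4a1, Col4a2 and Col6a2, and both multiplexins moved down. Col18a1 fell to rank 5 in both KO libraries at a level per length of 3825 and 3817. With the longest transcript as length, Col18a1 ranked 4 in every WT and every KO library, so its fall in rank depends on the length used. Col15a1 dropped to rank 21 in KO-1 and 19 in KO-2, at 85.0 and 121 per kb. As a share of the summed level per length of all collagen genes, Col15a1 was 4.82% to 6.49% in WT and 0.154% and 0.214% in KO. Col18a1 was 12.2% to 13.8% in WT and 6.94% and 6.75% in KO. Together both members made up 17.6% to 18.8% of the collagen level per length in WT, and 7.10% and 6.96% in KO-1 and KO-2.

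**Figure D2:**
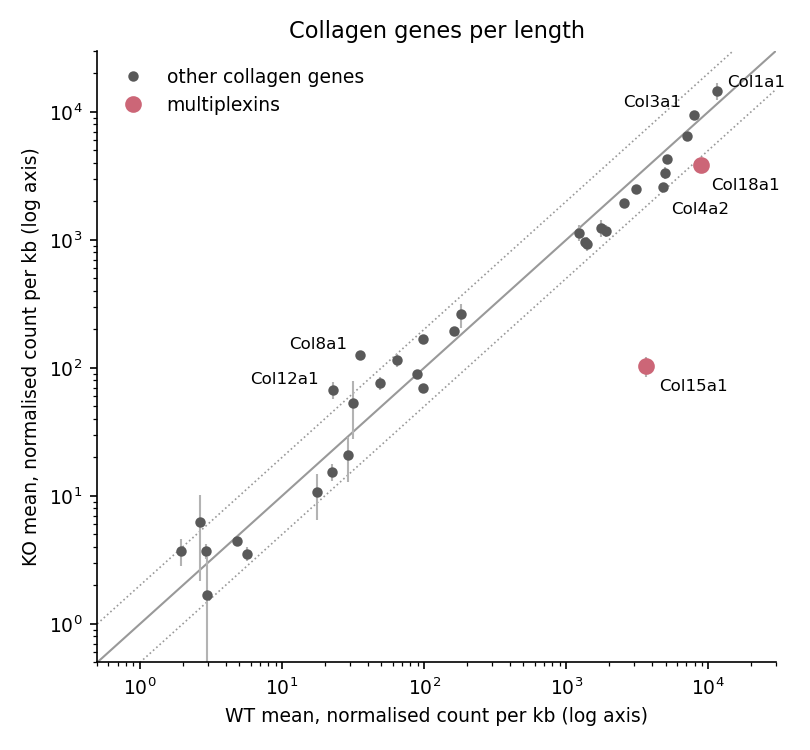
KO mean against WT mean of the normalised count per kb of merged exon for collagen genes with a WT mean above 1 per kb, on log axes; vertical bars span the 2 KO libraries, the solid line marks equality and the dotted lines a 2-fold difference. Col15a1 lies far under the dotted line at 3668 in WT and 103 in KO, and Col18a1 just under it at 8871 and 3821, while the other abundant collagens lie between the dotted lines.

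Markers of other cell types differed between the groups, and their part in the multiplexin values was not tested. Beside the marker counts below, 4.69% of all 17070 genes tested were lower and 5.71% higher at an adjusted p under 0.05 in DESeq2. Endothelial cells also make both collagens, and 5 of 14 endothelial markers rose while none fell, their summed normalised count being 18295 to 29494 in WT and 39140 and 38812 in KO. Of the other lists, higher genes numbered 3 of 12 fibroblast (summed count 93718 to 111282 in WT, 129431 and 94875 in KO), 8 of 10 mesothelial (712 to 977, 1651 and 3691), 9 of 10 macrophage (5 without KO-2; 9717 to 11640, 16493 and 18866), 5 of 10 adipocyte (3151 to 5819, 6323 and 49548), 4 of 9 cardiac muscle (3274 to 4507, 25096 and 4064) and 4 of 4 tested red blood cell markers (859 to 5990, 11076 and 61684). Adipocyte and red blood cell counts were highest in KO-2 and cardiac muscle counts in KO-1. Without KO-2 the higher genes numbered 5 fibroblast, 1 mesothelial, 0 adipocyte, 7 cardiac and 1 red blood cell marker, and without KO-1 1 fibroblast, 9 adipocyte and 1 cardiac marker. Fewer were also higher without WT-1 (3 endothelial, 6 mesothelial, 8 macrophage, 1 adipocyte). Without WT-2 they numbered 3 endothelial, 2 fibroblast, 7 mesothelial, 7 macrophage, 3 adipocyte, 2 cardiac and 2 red blood cell. Leaving out WT-3 gave 4 endothelial, 7 macrophage, 2 adipocyte, 3 cardiac and 3 red blood cell, but 4 fibroblast. Leaving out WT-4 gave 7 mesothelial, 8 macrophage, 2 adipocyte and 3 cardiac. With all 6 libraries and default scaling, 0 genes of the lists just named were called lower by DESeq2 or edgeR (2 endothelial markers were lower at an unadjusted p under 0.05), but 2 fibroblast and 1 cardiac marker were lower without KO-1, and 1 endothelial marker was lower without KO-2, with smooth muscle size factors and with the GC trend removed. In edgeR with a filter, 3 endothelial, 2 fibroblast, 4 mesothelial, 4 macrophage, 2 adipocyte, 3 cardiac and 4 red blood cell markers were higher. With the replicate block, 6 endothelial, 1 fibroblast, 7 mesothelial, 2 macrophage, 4 adipocyte, 3 cardiac and 1 red blood cell marker were higher. No marker had 0 counts in all libraries. Among 10 Schwann cell and pericyte markers (73325 to 84579, 51533 and 66483), Abcc9 was higher, Cspg4 fell (adjusted p = 1.15e-14) and Pdgfrb by 0.46 (adjusted p = 0.0285), the call of Pdgfrb being lost without WT-2 (adjusted p = 0.0789), WT-3 (0.0509) or KO-2 (0.0824). The gene that rose, Abcc9, at 0.66 (adjusted p = 0.0119), lost its call without WT-2 (adjusted p = 0.0643) or KO-2 (0.204).

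Depth did not order the groups. Total counts were 19650983 to 28860598 per library, and KO-1 was the deepest and KO-2 the shallowest. Mitochondrial transcripts took 2.62% to 4.44% of WT counts, 3.38% of KO-1 and 11.7% of KO-2, and KO-2 stands apart in this respect. Gm42418, a gene that overlaps ribosomal RNA, took 1.89% to 4.67% of WT counts but 0.692% of KO-1 and 0.445% of KO-2, so this share separated the groups, and its part in the results was not tested beyond scaling. Scaled by total counts with Gm42418 and mitochondrial genes left out, the log2 fold change of KO against WT was -5.10 for Col15a1 and -1.16 for Col18a1. The Col15a1 log2 fold change was -4.92 with KO-2 as the only KO library and -5.42 with KO-1 as the only one, and Col18a1 gave -1.21 and -1.20 in the same order. The targeted receptor genes did not pass the test over all genes. Tgfbr1 was 3858 to 5420 in WT and 5780 and 4568 in KO (log2 fold change 0.20, DESeq2 adjusted p = 0.630), and Tgfbr2 was 5327 to 7042 in WT and 5784 and 5937 in KO (-0.09, adjusted p = 0.838). Whole-gene counts also hold RNA of the remaining exons and of unrecombined cells, and thus give no check of the genotype labels.

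Col15a1 lies beside a targeted gene: Tgfbr1 starts 40.1 kb past its end on the same strand. Mice with the floxed Tgfbr1 allele therefore also carry the chromosome segment that was bred with it, and the effect of that segment on Col15a1 and the effect of receptor loss cannot be told apart in 2 KO mice. Of 15 annotated genes within 500 kb of Col15a1, 6 reached a mean of 10 normalised counts, and 0 of these passed an adjusted p of 0.05 in DESeq2, against 10.4% of all genes tested. At an unadjusted p under 0.05 the number in DESeq2 was also 0. Adjusted, edgeR called 0, but 1 gene was lower there at an unadjusted p under 0.05. Their log2 fold changes ran from -1.05 for Galnt12, a mucin-type glycosyltransferase (adjusted p = 0.258), to 0.86 for the pseudogene Gm12430 (adjusted p = 0.447). Anks6, Alg2 and Sec61b lay between, at -0.25, -0.04 and -0.32. The antisense gene Gm12426 overlaps the start of Col15a1 and had normalised counts of 0 to 18.8, small beside Col15a1 in every library.

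Around Col18a1, 12 of 29 genes within 500 kb reached that mean, and 2 of these passed, beside 10.4% of all genes tested. Adarb1, an RNA-editing deaminase upstream of Col18a1, was 3695 to 4448 in WT and 2784 and 2181 in KO, and fell by 0.71 on the log2 scale (DESeq2 adjusted p = 0.00141). Itgb2, the β2 integrin of leukocytes, was 125 to 159 in WT and 261 and 510 in KO, and rose by 1.42 (adjusted p = 0.000246), a call that was lost without KO-2 (0.87, adjusted p = 0.0731). With the replicate number as a block, neither gene passed. The nearest expressed neighbour upstream, Pofut2, which adds fucose to matrix proteins, was 4485 to 4994 in WT and 3471 and 3772 in KO and just missed the threshold (-0.42, adjusted p = 0.0517), which it passed without WT-4 (-0.45, adjusted p = 0.0253) and without KO-2 (-0.47, adjusted p = 0.0406). The type VI collagen genes Col6a1 and Col6a2 lie on the same side of the chromosome as the 3′ end of Col18a1, with log2 fold changes of -0.24 (adjusted p = 0.304) and -0.32 (adjusted p = 0.136). The others, Lss, Pcbp3, Fam207a, Pttg1ip, Sumo3 and Ube2g2, lay between -0.26 and 0.53 and did not pass. The folate carrier gene Slc19a1 overlaps the 3′ end of Col18a1 on the opposite strand at 97.1 to 145 normalised counts, small beside Col18a1.

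**Figure D3:**
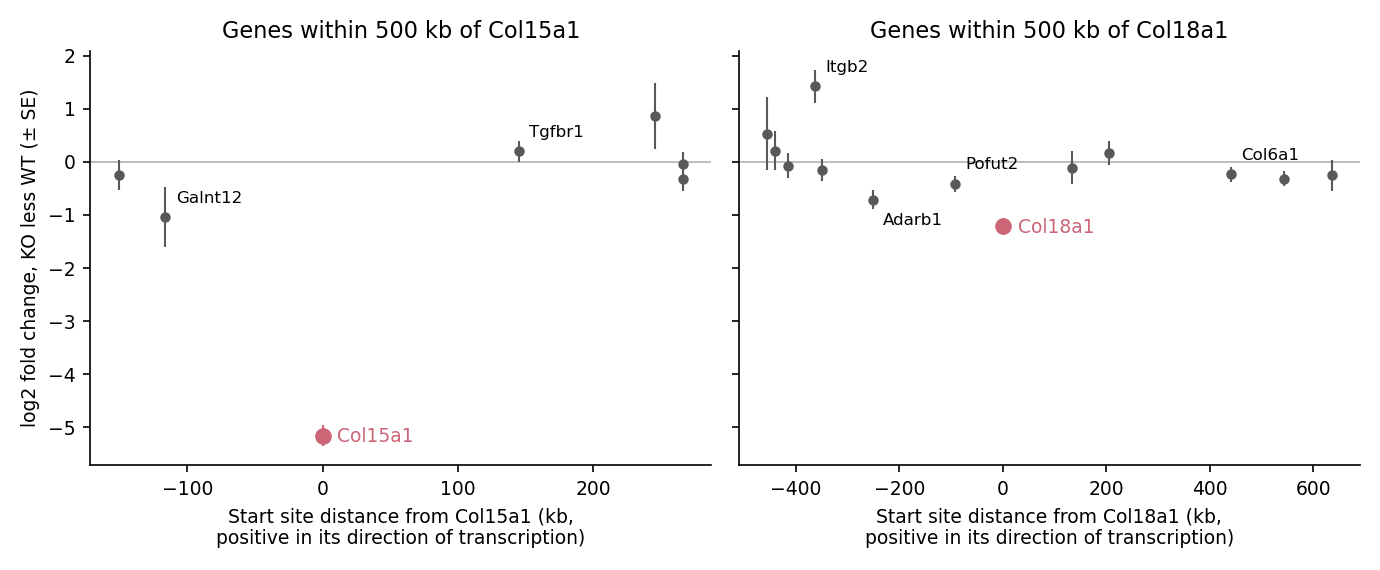
Log2 fold change (KO against WT, error bars are standard errors) of the expressed genes within 500 kb of Col15a1 (6 genes, left) and Col18a1 (12 genes, right) against the distance of their start site in kb. Neighbours of Col15a1 lie between -1.05 and 0.86 around Col15a1 at -5.16; neighbours of Col18a1 lie between -0.71 and 1.42, with Col18a1 at -1.22.

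The other collagens were then examined. Over all genes tested, 4.69% were lower and 5.71% higher at an adjusted p under 0.05. Of 42 other collagen genes, 34 were tested, 6 fell and 4 rose, with a median log2 fold change of -0.11 beside 0.02 for all genes. Of the 6, 0 fell by more than 2-fold, as 2.1% of all genes tested did. Of the 6 chains of type IV collagen, the network-forming collagen of basement membranes, 4 fell, Col4a3 rose, and Col4a4 did not pass (0.24, DESeq2 adjusted p = 0.381). Col4a2 was 30575 to 33812 in WT and 16724 and 17793 in KO (-0.87, DESeq2 adjusted p = 1.29e-07). Col4a5 fell by 0.69 (adjusted p = 0.000681), Col4a6 by 0.58 (adjusted p = 0.00734) and Col4a1 by 0.56 (adjusted p = 0.0106). The last 2 calls were lost without KO-2 (-0.40 for each gene). Both were also lost in edgeR without a filter (adjusted p = 0.0613 for Col4a6 and 0.0711 for Col4a1). With the replicate block Col4a5, Col4a6 and Col4a1 did not pass. Among those that rose, the network-forming Col8a1 was 253 to 298 in WT and 981 and 1002 in KO (1.84, adjusted p = 7.70e-19), and Col4a3 gained 0.76 (adjusted p = 0.000864). Col12a1, a fibril-associated collagen, gained 1.55 (adjusted p = 0.000457) and missed the threshold without KO-1 (1.33, adjusted p = 0.0547). The remaining gene that rose, Col11a1, had a very low level, 0.468 per kb in WT and 2.68 and 3.57 in KO (2.73, DESeq2 adjusted p = 0.0336). Its call was lost in 8 of 15 alternative fits. Over these fits, 1 to 8 of the other collagen genes were lower and 2 to 5 higher. The most abundant fibrillar genes did not pass: Col1a1 at 0.34 (adjusted p = 0.274, but 0.0332 without KO-1), Col3a1 at 0.25 (adjusted p = 0.288) and Col1a2 at -0.13 (adjusted p = 0.705), nor did Col6a1.

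Basement membrane partners of the multiplexins moved in both directions. Of 30 genes on that list, which shares the type IV chains with the collagen list, 28 were tested, 10 fell and 5 rose, with a median of -0.13. Of those tested, 35.7% fell and 17.9% rose, beside 4.69% and 5.71% of all genes. Npnt, a ligand of integrin α8β1, was 29610 to 33667 in WT and 15331 and 18358 in KO (-0.86, DESeq2 adjusted p = 4.08e-06). Sparc, which binds collagen IV and chaperones it, fell by 0.77 (adjusted p = 0.000105). Hspg2, the gene of the heparan sulfate proteoglycan perlecan, was 42718 to 47450 in WT and 34036 and 25591 in KO. It fell by 0.62 (DESeq2 adjusted p = 0.00532), a call lost without KO-2 (-0.42). The Hspg2 call was also lost in edgeR without a filter (adjusted p = 0.0581). In DESeq2 it was lost with the replicate block (adjusted p = 0.247) and with the GC trend removed (-0.40, adjusted p = 0.227). Nid1, the link between laminin and collagen IV, was 2318 to 3603 in WT and 6169 and 5658 in KO and rose by 1.05 (adjusted p = 2.51e-05). The laminin chain Lamb1 rose by 1.27 (adjusted p = 5.89e-07), Lama3 by 1.67 (adjusted p = 0.000352) and Fbln2, a laminin- and nidogen-binding fibulin, by 0.91 (adjusted p = 0.000281). Nid2 (0.12, adjusted p = 0.810), Lamc1 (-0.06, adjusted p = 0.895) and Lamb2 (-0.45, adjusted p = 0.0799) did not pass, although Lamb2 did without KO-1 (-0.71, adjusted p = 3.89e-06). Over the 15 alternative fits, 4 to 11 partners were lower and 4 to 7 higher.

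Enzymes that fold and modify collagens were counted next, beside the 4.69% of all genes that were lower and the 5.71% that were higher. Of 22 genes tested, 5 fell (22.7%, beside 4.69% of all genes) and 1 rose (2 without KO-1), and the median was -0.18. P3h2, a prolyl 3-hydroxylase that acts on basement membrane collagens, was 2179 to 2698 in WT and 1166 and 1184 in KO (-1.06, DESeq2 adjusted p = 3.10e-08). Colgalt1, which adds galactose to hydroxylysine, fell by 0.63 (adjusted p = 0.00133) and the collagen chaperone Fkbp10 by 0.56 (adjusted p = 0.00571). P4ha3, a prolyl 4-hydroxylase subunit, was 7.69 to 18.8 in WT and 56.1 and 140 in KO and rose by 2.78 (adjusted p = 8.31e-05), a call lost without KO-2 (1.99, adjusted p = 0.120). The lower count was 3 without WT-1, WT-2 or WT-3 and 8 without KO-1.

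The glycosaminoglycan chains carried by both multiplexins are built by another group of enzymes. Of 36 such genes, all tested, 5 fell (13.9%, beside 4.69% of all genes) and 1 rose (2.78%, beside 5.71%), with a median of -0.01. Chpf, a chondroitin polymerising factor, was 1245 to 2649 in WT and 814 and 632 in KO (-1.46, DESeq2 adjusted p = 6.84e-06). Chst3, a chondroitin 6-O-sulfotransferase, fell by 0.96 (adjusted p = 5.19e-05). Xylt2, which starts both kinds of chain, fell by 0.83 (adjusted p = 0.000786) and Ext1, of the heparan sulfate polymerase, by 0.62 (adjusted p = 0.00401). The gene that rose, Hs2st1, a heparan sulfate sulfotransferase, gained 0.60 (adjusted p = 0.0276) and did not pass without WT-1 (adjusted p = 0.0532), WT-2 (0.0801) or KO-1 (0.120). Without WT-3, WT-4 or KO-2, 2 genes of this list were higher.

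Genes for proteases and inhibitors linked to endostatin release and for endostatin-binding proteins were counted separately. Of 19 release genes, 17 were tested, 2 fell (11.8%, beside 4.69% of all genes) and 1 rose (5.88%, beside 5.71%), and the median was -0.06. Ctss, the gene of cathepsin S, was 293 to 447 in WT and 807 and 1186 in KO and rose by 1.34 (DESeq2 adjusted p = 9.00e-06), in the same aortas in which 9 of 10 macrophage markers were higher (4 in edgeR), and the part of macrophages was not tested. The lower calls of Mmp3 (-0.96, adjusted p = 0.0284) and Bmp1 (-0.56, adjusted p = 0.0309) were both lost without WT-1, WT-2 or KO-2 (adjusted p from 0.0968 to 0.434), and that of Mmp3 also without WT-4 (adjusted p = 0.121). Of 13 binding genes, 3 fell and 3 rose (23.1% in each direction, beside 4.69% and 5.71% of all genes), with a median of 0.21. The integrin subunits Itgb5 (15523 to 19718 in WT, 11002 and 7763 in KO) and Itga5 fell by 0.95 (adjusted p = 5.19e-05) and 0.69 (adjusted p = 0.000167). Kdr, the VEGF receptor of endothelial cells and one of the endothelial markers, was 59.3 to 86.2 in WT and 350 and 896 in KO and rose by 3.18 (adjusted p = 5.04e-15). Flt4 and Itga2 rose by 2.03 and 1.94 (adjusted p = 7.17e-05 and 0.00145) and lost the call without KO-2 (adjusted p = 0.100 and 0.208), where 1 binding gene was higher, while 5 were without KO-1.

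Among genes known to respond to TGF-β, more fell than rose. In that order the shares were 35.7% and 7.14% of those tested, beside 4.69% and 5.71% of all genes. Of 28 genes tested, 10 fell and 2 rose (1 without WT-1, WT-2 or KO-1), and the median was -0.38. Pmepa1 and Ldlrad4, feedback inhibitors of TGF-β signalling, fell by 1.45 (DESeq2 adjusted p = 5.76e-14) and 1.27 (adjusted p = 1.44e-09), and the oxidase Nox4 by 1.42 (adjusted p = 1.77e-09). Ltbp3, which binds latent TGF-β in the matrix, was 13578 to 15803 in WT and 7383 and 7620 in KO (-0.97, adjusted p = 2.43e-08). The fitted difference of Col18a1 was near those of Pmepa1, Ldlrad4 and Nox4, while that of Col15a1 was lower than that of any gene counted in the 7 lists. Thbs1, for thrombospondin-1, went the other way, from 399 to 1186 in WT to 6142 and 4204 in KO (2.60, adjusted p = 2.52e-12). Over all 7 lists, which hold 184 different genes, 172 were tested. Of these, 37 fell (21.5%, beside 4.69% of all genes tested) and 16 rose (9.30%, beside 5.71%).

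**Figure D4:**
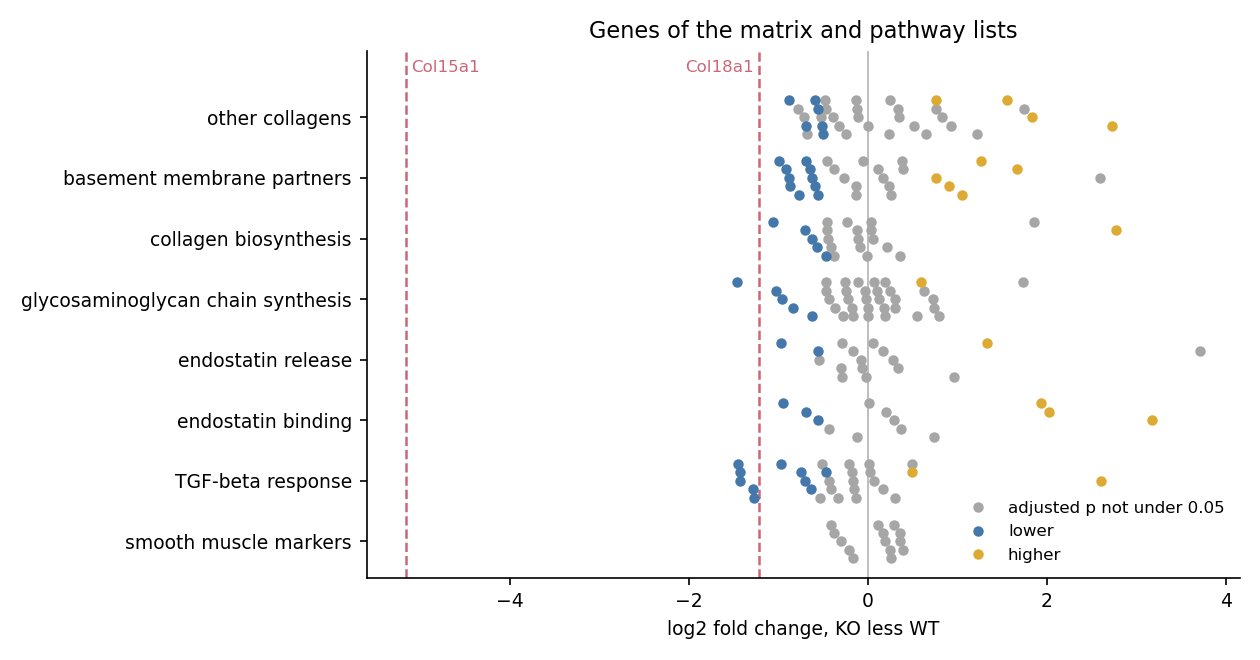
Log2 fold change of each tested gene of the 7 matrix and pathway lists and of the smooth muscle markers, coloured by whether it was lower, higher or not past an adjusted p of 0.05 in DESeq2. Dashed lines mark Col15a1 at -5.16 and Col18a1 at -1.22; Chpf at -1.46 is the lowest other gene shown, and no smooth muscle marker passed.

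Genes with the most similar pattern over the 6 libraries were named by the root mean square difference of log2 values, each less its WT mean, among 15511 genes. For Col18a1 they were Cspg4 at 0.0893, Ccdc3 at 0.0935, Ccdc9b at 0.0996, Slc38a11 at 0.106 and Hbegf at 0.107. Cspg4, a chondroitin sulfate proteoglycan of mural cells, was 20870 to 24362 in WT and 9683 and 8616 in KO. Ccdc3, a secreted protein, was 22172 to 24485 in WT and 9193 and 10842 in KO. Of these 5 genes, 4 stayed among the 5 nearest with a pseudocount of 5, and 0 did when likeness was taken over the mean change alone. For Col15a1 no abundant gene came close. Its nearest were Gm14412 at 0.273, Nmb, the gene of the peptide neuromedin B, at 0.439, Gm14418 at 0.457, the pseudogene Gm8899 at 0.719 and Gm37510 at 0.775. All 5 had low counts, at most 31.9 in WT and 0 to 1.23 in KO, where the pseudocount sets the log2 change, and 0 to 2 of them stayed among the 5 nearest under those 2 settings. The likeness is a description of 6 libraries.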

How the data were processed

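RNA of whole thoracic aortas was sequenced by the authors, who trimmed reads with Trim Galore, mapped them to GRCm38 with HISAT2 and estimated gene expression with StringTie on GENCODE models. In the deposited table, values are whole estimated counts for each gene, not scaled for depth. How they were rounded, and whether strand was used, is not given in the sources used here, so overlapping genes can share reads. Column codes were matched to libraries by their numbering, and 0 columns were left out.

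Of the gene identifiers, 52489 matched GENCODE M21 on GRCm38 and 147 did not. DESeq2 1.42.0 in R 4.3.3 compared KO with WT (Wald test on group alone, with default scaling and outlier handling, independent filtering at 0.05, Benjamini-Hochberg adjustment over 17070 genes), and the steps were tested on simulated data. P-values measure the spread between these libraries. Levels per length are normalised counts per kb of merged exons. Shares of counts had 95% Wilson intervals of at most 0.0021 percentage points to either side.

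The members and lists were chosen with earlier results of these data known. Named genes were, per list, the 4 called genes of smallest adjusted p in each direction, the main basement membrane partners, the 5 collagens with the highest WT level per length, the targeted genes, neighbours within 500 kb whose normalised counts average 10 or more, and the 5 genes nearest in pattern (pseudocount 0.5); Pdgfrb, Abcc9, Acta2, Myh11 and Tagln are named as markers, Gm42418 as a sign of RNA quality and Col4a4 to complete the type IV chains, Abcc9, Gm42418 and Col4a4 after their values were seen. Not every gene so selected is described, and 1 gene of the TGF-β list is not reported here. Alternatives were edgeR 4.0.16 (quasi-likelihood, with and without a filter), TMM, total-count and smooth muscle scaling, a filter of 10 counts in 2 libraries, leaving out each library, a replicate block and, added after seeing the data, removal of the GC trend. With 1 KO library left, it is assumed to vary like WT. RefSeq promoter windows were searched for motifs; proteins were not used here.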

Additional observations from a re-analysis of the deposited data

Results flagged for a closer look

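Among 71 genes checked, 6 had a WT library far from the other 3, where about 3.55 would be found by chance. Neither Col15a1 nor Col18a1 was among them. Normalised counts set apart were 505.4 for Alg2 in WT-4 (others 755.9 to 767.8), 40038 for Col4a1 in WT-2 (35200 to 35967), 18.7 for Itga2 in WT-1 (34.1 to 36.9), 33667 for Npnt in WT-3 (29610 to 29764), 4485 for Pofut2 in WT-4 (4934 to 4994) and 614.3 for Sumo3 in WT-2 (1824 to 1987).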

How the results depend on the processing

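Col15a1 kept its direction in all 15 alternatives, at -5.42 to -4.92 on the log2 scale, both ends being fits with 1 KO library. Col18a1 ran from -1.28 to -0.99, the latter with the GC trend of each library removed, and from -1.25 to -1.15 without 1 library. Genes called lower, 801, became 445 in edgeR with a filter, 373 without, and 547 to 1291 without 1 library. Those called higher, 974, became 551, 558 and 519 to 1148. List genes called lower, 37, became 21 in edgeR without a filter and 28 to 49 without 1 library; those called higher, 16, ran from 13 to 18 without 1 library. Deviations of same-numbered WT and KO libraries from their group means correlated at -0.087 and 0.014. With 2 KO libraries, whose deviations mirror each other, this cannot decide whether the replicate numbers pair the samples. With the replicate number as a block, Col15a1 was at -5.08 and Col18a1 at -1.28, 301 genes were lower and 327 higher, 14 list genes were lower and 12 higher, and 0 of 18 neighbours passed, against 2. By the longest transcript as length, Col18a1 ranked 4 among collagens in every WT and KO library, and Col15a1 ranked 9 by its WT mean. Of 975 values of 65 named genes, 864 kept direction and side of the threshold, 91 lost the call, 7 gained one and 13 turned in direction: with total counts less mitochondrial genes and Gm42418, Alg2 gave 0.0164 and Lamc1 0.00347, and with the block Lamc1 gave 0.0811, Pttg1ip 0.00593 and Tgfbr2 0.0959. Without 1 library, Alg2 ran from -0.166 to 0.00689, Anks6 from -0.637 to 0.0619, Col1a2 from -0.260 to 0.00528, Fam207a from -0.429 to 0.0718, Slc19a1 from -0.336 to 0.0908, Pttg1ip from -0.440 to 0.226 and Sumo3 from -0.0568 to 0.339. None of these genes passed the test. The causes were not tested. Scaling moved the median of all genes by under 0.1. With 2 KO libraries, small differences cannot be resolved.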
